A study of Mus musculus with 4 samples.

Results

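The response of p53+/+ mouse embryonic stem (ES) cells to Adriamycin is described here gene by gene and family by family, beyond the classic p53 targets. It rests on 2 of the 4 samples of the series, untreated p53+/+ cells and p53+/+ cells kept in 0.5 uM Adriamycin (doxorubicin) for 8 h, with 1 library each. Transcript values were summed per gene, and 12532 of 22401 named genes other than short RNAs reached 1 FPKM (fragments scaled to transcript length and library size) in either library and were compared. The cells were of a C57BL/6X129Sv mix, at fewer than 20 passages, and grew in serum with leukemia inhibitory factor (LIF). The other 2 libraries, of ES cells labelled p53-/- with the same strain, medium, drug, dose and time, serve as a reference beside single values. The labels call the RNA polyadenylated but name an exome enrichment kit, so which transcripts were captured is not certain, and they give neither the p53 allele nor the number of clones or cultures.

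Adriamycin intercalates into DNA and traps topoisomerase II on it, which leaves double-strand breaks. The breaks activate kinases that stabilise p53, a tetrameric transcription factor that binds response elements near its targets and raises their transcription; in many cells its target p21 then keeps cell cycle promoters under repressor complexes. ES cells hold a self-renewing state through LIF, Wnt and BMP signalling, and p53 in them is known for opposing that state as well as for apoptosis.

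The untreated and treated p53+/+ libraries held 4.32 and 4.15 gigabases of aligned sequence, and those labelled p53-/- held 3.34 and 3.52 gigabases. Trp53, the targeted gene, was at 216 FPKM untreated and 165 FPKM treated in p53+/+ cells and at 78.6 and 76.5 FPKM in those labelled p53-/-. Its RNA was thus lower but present in the cells labelled p53-/-, and a gene total cannot show which exons remain. Pou5f1, the defining factor of ES cells, was at 948 and 721 FPKM in p53+/+ cells, and all 33 listed pluripotency factors found passed the level filter. With no replicates there is no measure of biological spread, so a difference is called by its size alone, at 1 or more either way in log2(FPKM + 1), a scale that compresses the changes of low genes. "Rose" and "fell" below mean past that size, with no test, and whether the genotypes' responses differ was not tested either.

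On this scale 1481 of 12532 genes (11.8%) rose and 362 (2.89%) fell after Adriamycin in p53+/+ cells; over all 22401 named genes, which needs no filter, these are 6.61% and 1.62%. The same rule called 0.41% of 11941 genes higher, and 0.502% lower, in the cells labelled p53-/-. Of the genes past 1 in p53+/+ cells, 80.4% rose, a share that was 65.6% when both libraries were quantile normalized, which moved the median difference over all genes from 0.05 to -0.08. Of the 1481 genes that rose, 342 passed 2 and 63 passed 3, whereas 12 of the 362 that fell passed -2. Among the genes that rose, 53 were classic p53 targets (98 such genes are in the tables) and 1428 were not. A gene that passed the filter only through the treated library had to be higher there (1108 genes passed so, against 240 only through the untreated one), and each family's count is given with the number that passed so. Family counts are to be read beside the 11.8% and 2.89% of all genes compared. Lists near the first share included the EGF family (10%), ABC transporters (12%), chaperones (11.8%) and antioxidant genes (11.7%). So did the fatty acid list (10.8%), the aldehyde dehydrogenase list (10.8%) and the NF-kB and TNF list (13.2%). The genes next to the threshold were Emilin1 (1.0007, counted) and Chpf2 (0.9993, not counted) above, and Ibtk (-1.0002, counted) and Nfib (-0.9998, not counted) below. Since the filter used only the p53+/+ libraries, a gene could enter a list by being high in the treated one. Where such genes were below 1 FPKM in the libraries labelled p53-/-, the added 1 FPKM holds their differences there near 0. List medians given for both genotypes therefore do not compare the genotypes' responses. In bulk RNA, more cells of a type and more RNA per cell cannot be told apart, which holds for every value here.

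**Figure D1:**
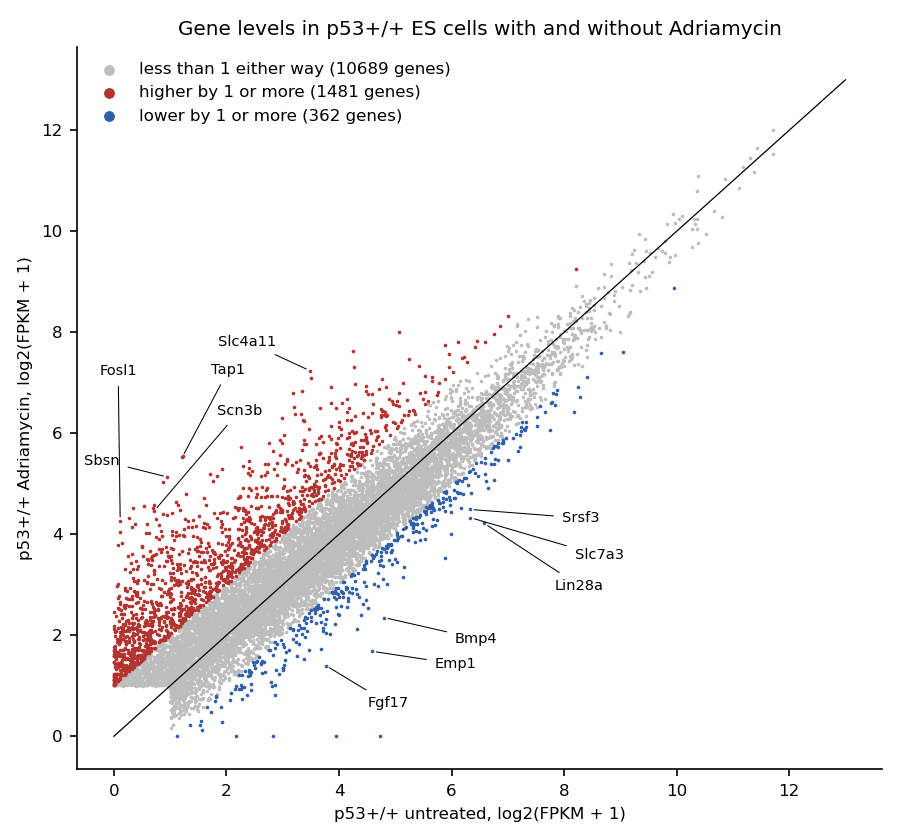
Each point is 1 of the 12532 genes compared, with log2(FPKM + 1) in the untreated p53+/+ library on the x axis and in the treated one on the y axis; the line marks equal levels. Red points are the 1481 genes that rose, dense at low untreated levels, and blue points the 362 that fell, which reach higher ones.

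Among the 20 largest rises outside the classic targets were Alox5, Ltb4r2 and Plch2 of the eicosanoid and phospholipase list and Sbsn and Them5 of the epidermal barrier list. Tap1, a subunit of the transporter that feeds peptides to MHC class I, rose from 1.32 to 45 FPKM (4.31), with 0.753 and 0.922 FPKM in the libraries labelled p53-/-. Sbsn, which encodes the epidermal protein suprabasin, rose from 0.934 to 34.1 FPKM (4.18), with 2.56 and 3.36 FPKM in the libraries labelled p53-/-. Apol8, an apolipoprotein L gene, rose from 0.266 to 21.8 FPKM (4.17), with 0.176 and 0.32 FPKM in the libraries labelled p53-/-. All 3 were thus under 4 FPKM in every library but the treated p53+/+ one. Sytl1, a synaptotagmin-like effector of Rab27, rose from 0.841 to 32 FPKM (4.16), with 1.09 and 1.06 FPKM in the libraries labelled p53-/-. Slc4a11, a membrane transporter of the bicarbonate family, rose from 10.2 to 150 FPKM (3.75), with 5.67 and 7.63 FPKM in the libraries labelled p53-/-. Beside these 5 described genes, the 20 comprised Fosl1, Them5, Matn1, Cpz, Ltb4r2, Plch2, Alox5, Scn3b, Ppp1r36, Krt5, Tmem40, Klhl26, Rgs14, Cyp4f39 and Eef1a2, with differences from 3.54 to 4.15. Slc4a11 and Klhl26 were the only ones of these 20 at 10 FPKM or more untreated.

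The 20 largest falls were chosen among genes that reached 5 FPKM in a p53+/+ library, so their starting levels are not compared with those of the rises. Emp1, an epithelial membrane protein of the PMP22 family, fell from 23.1 to 2.21 FPKM (-2.91), with 23.5 and 20.2 FPKM in the libraries labelled p53-/-; the deposited bounds of the p53+/+ values were 20.6 to 23.3 and 1.78 to 2.62 FPKM. Bmp4, a ligand that supports self-renewal of ES cells, fell from 26.9 to 4.1 FPKM (-2.45), with 11.5 and 10.8 FPKM in the libraries labelled p53-/-. Fgf17, another secreted signal, fell from 12.6 to 1.64 FPKM (-2.37), with 13.9 and 12.2 FPKM in the libraries labelled p53-/-. The intracellular genes among them included regulators of the stem cell state. Lin28a, an RNA-binding protein that blocks let-7 maturation, fell from 94.8 to 17.6 FPKM (-2.36), with 65.6 and 66.4 FPKM in the libraries labelled p53-/-. Eras, a Ras protein of ES cells, fell from 62.5 to 15.1 FPKM (-1.98). Slc7a3, a carrier of cationic amino acids, fell from 79.8 to 19.1 FPKM (-2.01). Nr0b1, Prdm14, Akr1b3, Myrf, Bcl3, Gbx2, Sfrp1, Notch4, Nt5e, Srsf3, Trip10, Zic2, Cdc42ep5 and Dmtn completed the 20 largest falls, from -2.35 for Nr0b1 to the fall of Dmtn from 20.4 to 5.16 FPKM. Inpp5d, chosen after its values were seen, stood at 25.4 FPKM untreated and is listed at 0 in the treated p53+/+ library, where its transcripts did not all have status OK, so no fold is given.

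**Figure D2:**
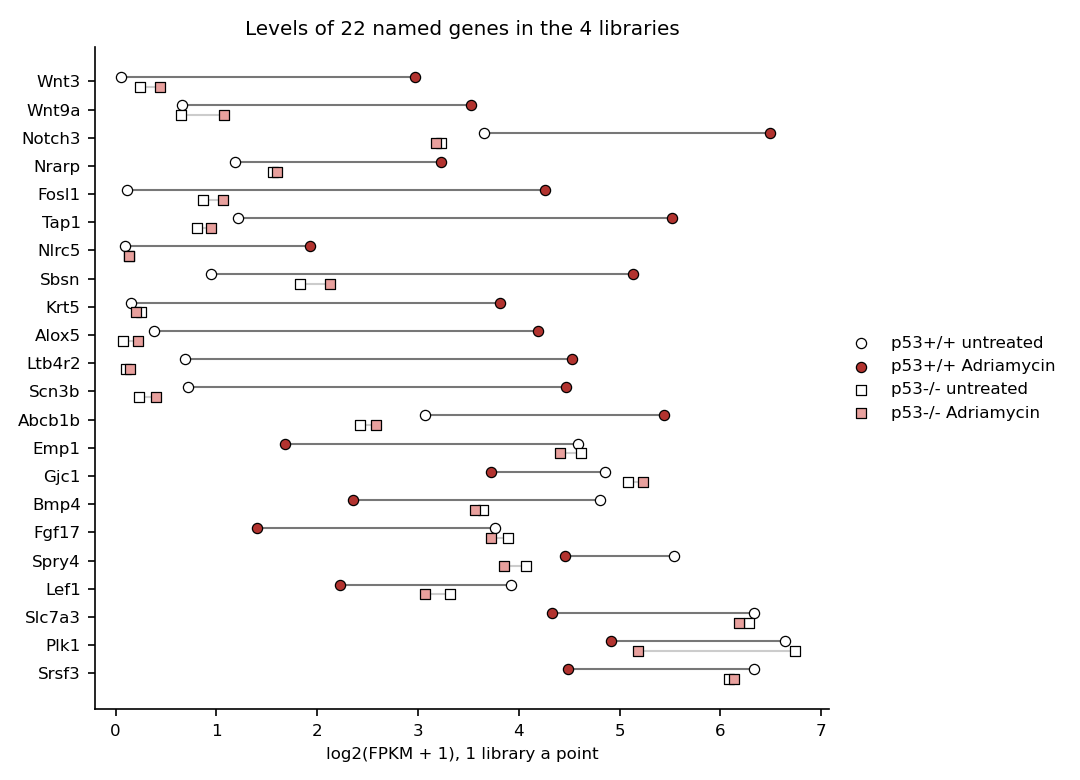
Levels of 22 genes on the log2(FPKM + 1) axis, circles for p53+/+ and squares for p53-/- libraries, open for untreated and filled for Adriamycin, 1 library a point. The circles of a gene lie at least 1 apart by the choice of genes, while the squares lie close together except for Plk1, where they lie 1.56 apart.

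Wnt ligands bind Frizzled receptors, and the canonical ones stabilise beta-catenin, which supports self-renewal in ES cells and primes mesendoderm in the embryo. Of 19 genes of this list in the tables, 10 passed the level filter, 7 of them only through the treated library, and 8 rose and 0 fell (median 1.81, against 0.01 for the same genes in the libraries labelled p53-/-). Given this selection, the medians do not compare the genotypes. Wnt3, a canonical ligand needed for gastrulation, rose from 0.0374 to 6.82 FPKM (2.91), with 0.182 and 0.36 FPKM in the libraries labelled p53-/-; its deposited bounds were 0 to 0.0701 and 5.96 to 7.4 FPKM. Wnt9a rose from 0.582 to 10.5 FPKM (2.87), with 0.572 and 1.11 FPKM in the libraries labelled p53-/-. Wnt3a, the ligand commonly added to ES cell cultures, rose from 0.441 to 5.37 FPKM (2.14), with 0.189 and 0.36 FPKM in the libraries labelled p53-/-. These ligands went from below 1 FPKM to between 5 and 11 FPKM. Wnt8b rose from 0.114 to 4.39 FPKM, and Wnt4 rose from 0.361 to 3.54 FPKM. Wnt6, which was above 1 FPKM before treatment, rose from 2.04 to 10.2 FPKM (1.89), with 0.437 and 0.421 FPKM in the libraries labelled p53-/-. The receptors, inhibitors and targets moved by single members. Of 39 genes of this list in the tables, 30 passed the level filter, 3 of them only through the treated library, and 2 rose and 2 fell (median -0.24, against 0.07 for the same genes in the libraries labelled p53-/-). Sfrp1, a secreted Wnt antagonist, fell from 11.8 to 2.31 FPKM (-1.95), whereas Sfrp2, its relative, rose from 3.64 to 11.4 FPKM (1.41). Lef1, a partner of beta-catenin on DNA, fell from 14.2 to 3.67 FPKM (-1.70), with 9 and 7.41 FPKM in the libraries labelled p53-/-. Axin2, a target commonly used as a readout and chosen here after its values were seen, stood at 5.25 FPKM untreated and 3.19 FPKM treated (-0.58).

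Notch is cleaved when it meets a ligand on the neighbouring cell, and the released domain acts with Rbpj on genes of the HES and HEY families. Of 27 genes of this list in the tables, 21 passed the level filter, 3 of them only through the treated library, and 8 rose and 3 fell (median 0.45, against 0.04 for the same genes in the libraries labelled p53-/-). Notch3, a receptor, rose from 11.6 to 89.3 FPKM (2.84), with 8.36 and 8.06 FPKM in the libraries labelled p53-/-. Jag2, a ligand, rose from 10.1 to 67.2 FPKM (2.62), with 18.1 and 16.4 FPKM in the libraries labelled p53-/-. Dll1, a ligand of the Delta class, rose from 3.26 to 13.1 FPKM. These 3 genes were higher, whereas Notch4, an endothelial receptor, fell from 9.44 to 1.87 FPKM (-1.86). Nrarp, a feedback inhibitor that is itself a Notch target, rose from 1.28 to 8.39 FPKM (2.04), and Hes6 rose from 6.06 to 19 FPKM. Outside the naming rule, Notch1 rose from 8.1 to 23.8 FPKM, Rbpj fell from 84.1 to 36.1 FPKM, and Hes1, the best known target, stood at 12.8 FPKM untreated and 14.2 FPKM treated (0.14).

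FGF ligands drive ERK, which in ES cells favours exit from the naive state, and ETV factors and Sprouty proteins are read as its output. Of 36 genes of this list in the tables, 25 passed the level filter, 3 of them only through the treated library, and 3 rose and 7 fell (median -0.40, against 0.01 for the same genes in the libraries labelled p53-/-). Fgf15, a ligand like Fgf17, fell from 12.4 to 3.69 FPKM (-1.52). Etv1, an output gene, fell from 3.85 to 0.965 FPKM (-1.30), as did its relative: Etv5 fell from 112 to 52 FPKM (-1.09). Spry4, a feedback inhibitor chosen after its values were seen, fell from 45.5 to 21 FPKM (-1.08), with 15.8 and 13.5 FPKM in the libraries labelled p53-/-. These ligands and outputs were lower, whereas Fgfr4, a receptor, rose from 2.06 to 16.4 FPKM (2.51) and Fgf22, a ligand, rose from 0.494 to 2.23 FPKM. In the EGF family 1 rose and 0 fell of 10 that passed (2 only through the treated library), a share of 10% against 11.8% of all genes compared. Egfr, the receptor, rose from 0.456 to 7.6 FPKM (2.56), while Hbegf, one of its ligands, stood at 10.8 FPKM untreated and 6.01 FPKM treated.

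Ligands of the TGF-beta superfamily act through SMAD proteins and split in direction. Nodal, the ligand that patterns the epiblast, rose from 30 to 94.9 FPKM (1.63), with 13.1 and 14.3 FPKM in the libraries labelled p53-/-. Lefty1, its inhibitor and target, rose from 34.3 to 126 FPKM (1.84), with 94.7 and 118 FPKM in the libraries labelled p53-/-. Both rose in p53+/+ cells, and Lefty1 already stood above untreated p53+/+ cells in both libraries labelled p53-/-. Tgfb1 fell from 9.47 to 2.91 FPKM, and Gdf1 fell from 2.75 to 0.494 FPKM. Ltbp2, a matrix protein of the latent TGF-beta binding protein family, rose from 0.1 to 3.43 FPKM. Over the Nodal, Activin and TGF-beta list 6 rose and 2 fell of 27 that passed (2 only through the treated library). Bmp7 rose from 1.61 to 16.6 FPKM (2.75), against the fall of Bmp4; of 18 that passed (4 only through the treated library) in the BMP list, 3 rose and 1 fell. Of 10 that passed (1 only through the treated library) in the Hedgehog list, 1 rose and 3 fell. Ptch1, the receptor and itself a target, fell from 14.8 to 4.37 FPKM (-1.56), and Gli2, an effector, fell from 19.3 to 8.36 FPKM (-1.12); Gli1, the usual readout, stood at 13.6 FPKM untreated and 10.2 FPKM treated (-0.39). In the Hippo list 4 rose and 1 fell of 25 that passed (1 only through the treated library). The TEAD factors that it acts on went both ways: Tead3 rose from 2.26 to 6.08 FPKM, and Tead4 fell from 8.1 to 3.38 FPKM. Ccn1, a matricellular target, rose from 7.4 to 20.9 FPKM.

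LIF acts through gp130 and STAT3. Il6st, which encodes gp130, fell from 18.8 to 6.58 FPKM (-1.38), with 15.6 and 15.4 FPKM in the libraries labelled p53-/-. Socs2, a feedback inhibitor, fell from 16.8 to 5.42 FPKM (-1.47), whereas Socs1, another one, rose from 3.3 to 9.34 FPKM (1.27). Lif, the ligand itself, rose from 0.545 to 3.62 FPKM, and Jak3 rose from 10.8 to 27.4 FPKM. Of 20 that passed (1 only through the treated library) in this list, 5 rose and 2 fell (median 0.38).

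AP-1 is a pair of a Fos and a Jun family protein, induced early by stress and growth signals. Fosl1, the Fos family member Fra-1, rose from 0.0811 to 18.2 FPKM (4.15), with 0.821 and 1.09 FPKM in the libraries labelled p53-/-; its deposited bounds were 0 to 0.169 and 16.6 to 19.7 FPKM. Fos rose from 1.9 to 12.7 FPKM (2.25), with 1.37 and 4.29 FPKM in the libraries labelled p53-/-, and was 1 of 4 genes past 1 upward in both genotypes. Jun rose from 1.64 to 6.56 FPKM (1.52), and Mafk, a small Maf factor, rose from 2.43 to 9.81 FPKM. Atf4, a factor of the integrated stress response, fell from 95.4 to 35.5 FPKM (-1.40), with 76.4 and 60.4 FPKM in the libraries labelled p53-/-, while Atf3 stood at 1.31 FPKM untreated and 3.44 FPKM treated (0.95). Of 22 genes of this list in the tables, 15 passed the level filter, 1 of them only through the treated library, and 4 rose and 1 fell (median 0.33, against 0.11 for the same genes in the libraries labelled p53-/-). Of 21 that passed (2 only through the treated library) in the list of other immediate early genes, 4 rose and 2 fell. Dusp2, a phosphatase of ERK, rose from 0.639 to 8.24 FPKM (2.49), Egr1 rose from 6.76 to 20.7 FPKM, and Ier3 fell from 24.9 to 6.85 FPKM (-1.72).

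MHC class I shows peptides that the proteasome cuts and the TAP pump moves into the endoplasmic reticulum. Of 32 genes of this list in the tables, 20 passed the level filter, 4 of them only through the treated library, and 5 rose and 0 fell (median 0.07, against 0.04 for the same genes in the libraries labelled p53-/-). Beside Tap1, Tap2, its partner, rose from 0.301 to 3.07 FPKM (1.65), and Psmb9, an immunoproteasome subunit, rose from 3.09 to 13.3 FPKM. Nlrc5, the transactivator of class I genes, rose from 0.0647 to 2.82 FPKM (1.84), with 0.1 and 0.0972 FPKM in the libraries labelled p53-/-. Of the chains that present the peptide, H2-K1, a heavy chain chosen after its values were seen, stood at 13.5 FPKM untreated and 11.7 FPKM treated (-0.18), B2m, the light chain, likewise chosen, stood at 8.55 FPKM untreated and 10.2 FPKM treated (0.23), and H2-Q7, also chosen so, rose from 0.00414 to 1.02 FPKM. The near-identical H2 genes may share reads, so their values are uncertain. Of 28 that passed (2 only through the treated library) in the interferon response list, 5 rose and 1 fell (median -0.06). Zbp1, a sensor of nucleic acids, rose from 0.775 to 5.26 FPKM (1.82), and Xaf1 rose from 5.77 to 18.9 FPKM. Ddx58, the viral RNA sensor RIG-I, fell from 6.99 to 1.48 FPKM (-1.69). An exact interferon-stimulated response element was found in the promoters of 8 of 23 genes of the list (34.8%), against 3.2% of the compared genes with a promoter and 3.99% of all genes in the RefSeq table. Whether these elements were active was not tested.

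Cytokines and their receptors were mostly below 1 FPKM before treatment. Il20rb, a receptor chain for IL-20 family cytokines, rose from 0.478 to 15.2 FPKM (3.46), with 0.781 and 0.479 FPKM in the libraries labelled p53-/-. Cxcl10, a chemokine of activated T cells, rose from 0.161 to 5.66 FPKM (2.52), and Il17b rose from 3 to 9.99 FPKM. Of 148 genes of this list in the tables, 31 passed the level filter, 11 of them only through the treated library, and 7 rose and 1 fell (median 0.54, against 0.13 for the same genes in the libraries labelled p53-/-). Over all 148 genes 4.73% rose, below the 6.61% of all named genes. Of 38 that passed (5 only through the treated library) in the NF-kB and TNF list, 5 rose and 3 fell. Tnfrsf18, the receptor GITR, rose from 0.224 to 6.63 FPKM (2.64), Tnfrsf1a, the main TNF receptor, rose from 2.52 to 6.74 FPKM, and Tnfsf12, the ligand TWEAK, fell from 18.6 to 7.43 FPKM (-1.22). Of 25 that passed (7 only through the treated library) in the complement and coagulation list, 7 rose and 1 fell. Serpine2, a protease inhibitor, rose from 8.17 to 91.4 FPKM (3.33), with 16.8 and 19.5 FPKM in the libraries labelled p53-/-. Cd55, which protects cells from complement, rose from 2.98 to 14.7 FPKM, and F2rl1, a receptor cut by proteases, fell from 31.8 to 9.9 FPKM (-1.59).

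Keratins form the filaments of epithelial cells, and barrier genes build the outer layers of the epidermis. Keratin 5 marks the basal layer of the epidermis, and suprabasin, envoplakin, caspase-14 and dermokine belong to its differentiated layers. Krt5 rose from 0.109 to 13.1 FPKM (3.67), with 0.193 and 0.154 FPKM in the libraries labelled p53-/-; its deposited bounds were 0.0332 to 0.183 and 11.3 to 13.8 FPKM. Krt15, another basal keratin, rose from 0.0477 to 4.83 FPKM (2.48), Krt7 rose from 0.418 to 4.7 FPKM, and Krt19, a keratin of simple epithelia, rose from 10.8 to 28.3 FPKM. In the libraries labelled p53-/-, Krt15 was at 0 and 0 FPKM, Krt7 at 3.11 and 3.24 FPKM, and Krt19 at 38.6 and 36.9 FPKM. Krt17 fell from 9.46 to 3.41 FPKM (-1.25). Of 50 genes of this list in the tables, 10 passed the level filter, 5 of them only through the treated library, and 5 rose and 1 fell (median 0.79, against -0.06 for the same genes in the libraries labelled p53-/-). In the barrier list, Them5, a thioesterase, rose from 0.207 to 19 FPKM (4.05), Casp14 rose from 0.153 to 8.96 FPKM, and Evpl rose from 1.24 to 14.8 FPKM. Dmkn rose from 0.312 to 5.98 FPKM (2.41), and St14, a membrane protease, rose from 16.6 to 84.2 FPKM (2.28), with 13.8 and 14.6 FPKM in the libraries labelled p53-/-. Of 62 genes of this list in the tables, 29 passed the level filter, 8 of them only through the treated library, and 10 rose and 0 fell (median 0.58, against 0.16 for the same genes in the libraries labelled p53-/-). Zfp750, a regulator of epidermal differentiation, rose from 1.49 to 18.3 FPKM (2.96), with 0.111 and 0.158 FPKM in the libraries labelled p53-/-, and Trim29 rose from 0.373 to 5.71 FPKM. Trp63, the p53 relative that specifies this tissue, was at 0.0478 and 0.0247 FPKM and did not reach the filter. The summed level of 13 surface ectoderm markers, which include Krt5, Krt15 and Krt17, moved from 66.1 to 107 FPKM in p53+/+ cells, against 116 and 114 FPKM in the libraries labelled p53-/-, and 3 rose and 1 fell of 10 that passed (2 only through the treated library).

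The promoter of Sbsn is shown because this gene has the largest rise of the barrier list and 2 matches to the AP-1 site TGANTCA, which begin 119 and 6 bases before the start site (chr7:30751221-30751520, plus strand, RefSeq on GRCm38.p6, 5′ to 3′, matches in capitals).
Sbsn: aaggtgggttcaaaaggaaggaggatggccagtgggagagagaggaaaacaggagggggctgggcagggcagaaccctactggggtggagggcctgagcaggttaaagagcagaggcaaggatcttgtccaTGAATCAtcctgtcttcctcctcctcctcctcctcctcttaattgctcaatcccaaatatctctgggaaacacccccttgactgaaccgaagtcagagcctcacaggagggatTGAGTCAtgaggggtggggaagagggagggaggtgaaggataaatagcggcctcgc

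Of 22 barrier genes with a promoter in the RefSeq table, 5 (22.7%) held that site on either strand within 250 bases before to 50 after a start, against 91 of 1178 genes that rose (7.72%), 9 of 275 that fell (3.27%), 5.74% of all compared genes with a promoter and 8.97% of all genes in the table. The 5 were Sbsn, Dmkn, Krtdap, S100a16 and Sult2b1, named for the match, with differences of 4.18, 2.41, 0.98, 0.52 and 0.00. The site was not particular to the barrier list. It was found in 7 of 17 complement and coagulation genes (41.2%) and 6 of 30 NF-kB and TNF genes (20%). Among pluripotency factors, 0 of 22 held it. A match describes letters only, and binding was not measured.

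Connexins form the gap junction channels that couple neighbouring ES cells. Of 8 that passed in the connexin and pannexin list, 1 rose and 4 fell. Gjc1, one of these connexins, fell from 27.9 to 12.2 FPKM (-1.12), with 33 and 36.7 FPKM in the libraries labelled p53-/-. Gjb1, another connexin, fell from 4.22 to 1.3 FPKM (-1.18), with 2.58 and 2.76 FPKM in the libraries labelled p53-/-. In the libraries labelled p53-/- these genes had differences of 0.15 and 0.07. Gja1, connexin 43, stood at 35.7 FPKM untreated and 36 FPKM treated (0.01), and Panx1, a pannexin, which releases ATP through a single membrane, rose from 3.6 to 21.2 FPKM (2.27). Of 32 that passed in the list of cadherins, desmosomes and tight junctions, 5 rose and 1 fell. Cdh3, P-cadherin, rose from 6.96 to 20.7 FPKM, Cldn4, a tight junction claudin, rose from 44.3 to 101 FPKM, and Esrp1, an epithelial splicing regulator, fell from 3.84 to 0.669 FPKM (-1.54).

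Integrins join cells to laminin, fibronectin and other matrix. Of 30 genes of this list in the tables, 18 passed the level filter, 5 of them only through the treated library, and 5 rose and 1 fell (median 0.37, against -0.01 for the same genes in the libraries labelled p53-/-). Itgb4, the laminin receptor chain of hemidesmosomes, rose from 3.44 to 19.2 FPKM (2.18), with 1.5 and 2.04 FPKM in the libraries labelled p53-/-. Itga2b, a fibrinogen receptor chain of platelets, rose from 0.684 to 11.2 FPKM (2.85), Itgb2, the chain of leukocyte integrins, rose from 0.0545 to 5.68 FPKM, and Itga5, the fibronectin receptor chain, fell from 28.6 to 10.3 FPKM (-1.39). Most collagen genes were below 1 FPKM before treatment. Of 43 genes of this list in the tables, 16 passed the level filter, 8 of them only through the treated library, and 7 rose and 0 fell (median 0.97, against -0.12 for the same genes in the libraries labelled p53-/-). Col6a4 rose from 0.608 to 10.3 FPKM (2.82), with 0.12 and 0.199 FPKM in the libraries labelled p53-/-. Of 27 that passed (8 only through the treated library) in the laminin and basement membrane list, 8 rose and 0 fell: Matn1, a cartilage matrix protein, rose from 0.443 to 22.7 FPKM (4.04), and Fbln2 rose from 1.05 to 9.78 FPKM. In the libraries labelled p53-/-, Matn1 was at 0.0266 and 0.0242 FPKM, whereas Fbln2 was at 61.3 and 53.1 FPKM. Of 26 that passed (3 only through the treated library) in the list of matrix proteases and inhibitors, 5 rose and 0 fell: Adam8 rose from 0.922 to 10.1 FPKM, Adamts7 rose from 1.03 to 10.3 FPKM, and Mmp2 rose from 4.82 to 15 FPKM. Over the 84 genes of that list before the filter, 5.95% rose, against 6.61% of all named genes. Fibroblast markers were low in both p53+/+ libraries, where the 18 summed to 15.3 and 28 FPKM, with 5 and 4 of them at 0, against 558 and 495 FPKM in the libraries labelled p53-/-. Col1a1, one of these markers, rose from 0.727 to 5.03 FPKM, with 151 and 117 FPKM in the libraries labelled p53-/-. The part of such cells in the matrix values was not tested. Of 13 that passed (1 only through the treated library) in the list of the epithelial to mesenchymal transition, 2 rose and 0 fell: Snai3 rose from 4.77 to 29.4 FPKM (2.40), and Vim stood at 151 FPKM untreated and 89.7 FPKM treated.

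Slits and netrins guide axons through Robo and Unc5 receptors and steer migration in other tissues. Of 19 genes of this list in the tables, 11 passed the level filter, 6 of them only through the treated library, and 6 rose and 2 fell (median 1.03, against 0.06 for the same genes in the libraries labelled p53-/-). Robo3 rose from 0.225 to 8.47 FPKM (2.95), with 0.128 and 0.135 FPKM in the libraries labelled p53-/-. Slit1, a ligand, rose from 0.0649 to 4.76 FPKM (2.43), Ntng2 rose from 0.185 to 3.49 FPKM, and Unc5a rose from 0.78 to 4.13 FPKM. Ntn1 fell from 9.52 to 4.14 FPKM, and Robo4, an endothelial receptor, fell from 5.12 to 1.73 FPKM. Of 18 that passed in the semaphorin and plexin list, 2 rose and 0 fell: Plxna1 rose from 25.8 to 88 FPKM (1.73), and Plxnb2 rose from 20.6 to 52.2 FPKM (1.30). Of 16 that passed (3 only through the treated library) in the ephrin list, 5 rose and 1 fell: Efnb2, a ligand, rose from 1.46 to 5.95 FPKM, Epha2, a receptor, rose from 53 to 112 FPKM, and Ephb4, the receptor of Efnb2, fell from 11.3 to 4.93 FPKM.

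Ion channels and receptors of excitable cells were mostly below 1 FPKM in untreated ES cells. Of 98 genes of this list in the tables, 40 passed the level filter, 14 of them only through the treated library, and 15 rose and 0 fell (median 0.66, against 0.07 for the same genes in the libraries labelled p53-/-). Scn3b, an accessory subunit of sodium channels that also acts in adhesion, rose from 0.646 to 21.1 FPKM (3.75), with 0.171 and 0.321 FPKM in the libraries labelled p53-/-. Ano7, an anoctamin, rose from 0.143 to 6.64 FPKM, Ano3, of the same family, rose from 0.568 to 6.5 FPKM, and Trpm1 rose from 0.359 to 3.22 FPKM. Of 16 that passed (4 only through the treated library) in the potassium channel list, 5 rose and 0 fell: Kcnj4, an inward rectifier, rose from 2.84 to 20.8 FPKM (2.51), and Kcnn4, a calcium-activated channel, rose from 0.352 to 5.3 FPKM. Over the 80 potassium channel genes before the filter, 6.25% rose, against 6.61% of all named genes. The list of neurotransmitter receptors also holds those of extracellular nucleotides. Of 126 genes of this list in the tables, 30 passed the level filter, 13 of them only through the treated library, and 10 rose and 1 fell (median 0.54, against 0.11 for the same genes in the libraries labelled p53-/-). Before the filter, 7.94% of the 126 genes rose, near the 6.61% of all named genes. Chrnb4, a nicotinic receptor subunit, rose from 0.74 to 14 FPKM (3.11), P2ry6 rose from 0.528 to 10.2 FPKM, and P2rx7 rose from 1.88 to 14 FPKM.

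Transporters changed by member. Of 361 genes of this list in the tables, 210 passed the level filter, 30 of them only through the treated library, and 39 rose and 9 fell (median 0.22, against 0.10 for the same genes in the libraries labelled p53-/-). Slc34a3, a phosphate carrier, rose from 1.15 to 14.6 FPKM (2.85), Slc37a2, a sugar-phosphate exchanger, rose from 1.03 to 10.8 FPKM, and Slc25a42, the mitochondrial carrier of coenzyme A, rose from 2.69 to 20.3 FPKM. Of the glucose carriers, Slc2a4, GLUT4, rose from 1.27 to 8.9 FPKM (2.12), and Slc2a3, GLUT3, fell from 531 to 195 FPKM (-1.44), with 412 and 331 FPKM in the libraries labelled p53-/-. Abcb1b, which encodes a P-glycoprotein that exports Adriamycin itself, rose from 7.4 to 42.5 FPKM (2.37), with 4.38 and 5.01 FPKM in the libraries labelled p53-/-. Abcg1, a sterol exporter, rose from 3.63 to 12.9 FPKM, and Abcg2, another drug exporter, stood at 23.5 FPKM untreated and 13 FPKM treated (-0.81). Of 25 that passed (1 only through the treated library) in the ABC transporter list, 3 rose and 0 fell, and of 4 that passed (1 only through the treated library) in the aquaporin list, 0 rose and 0 fell. Of 93 that passed (13 only through the treated library) in the list of Rab GTPases and their effectors, 16 rose and 0 fell: Rab23, a regulator of Hedgehog signalling, rose from 8.87 to 43.6 FPKM (2.17), and Rab42 rose from 0.74 to 9.35 FPKM.

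Leukotriene B4 is made from arachidonic acid by Alox5 (5-lipoxygenase) and Lta4h and binds the receptors Ltb4r1 and Ltb4r2. Alox5 rose from 0.304 to 17.3 FPKM (3.81), with 0.055 and 0.166 FPKM in the libraries labelled p53-/-; its deposited bounds were 0.18 to 0.425 and 15.4 to 18.1 FPKM. Ltb4r1 rose from 0.273 to 8.87 FPKM (2.95), with 0.0401 and 0.256 FPKM in the libraries labelled p53-/-. Ltb4r2 rose from 0.614 to 22 FPKM (3.83), with 0.0772 and 0.106 FPKM in the libraries labelled p53-/-. The first enzyme and both receptors thus rose from below 1 FPKM, and the neighbouring receptor genes may share reads. Alox5ap, which presents the substrate to Alox5, stood at 4.85 FPKM untreated and 4.18 FPKM treated, and Lta4h stood at 42.6 FPKM untreated and 44.1 FPKM treated, both chosen after their values were seen. Tbxa2r, the thromboxane receptor, rose from 0.682 to 14.4 FPKM (3.20), Plch2, a phospholipase C, rose from 0.254 to 16.6 FPKM, and Plcd4, another, rose from 0.352 to 9.41 FPKM. Of 71 genes of this list in the tables, 44 passed the level filter, 16 of them only through the treated library, and 11 rose and 1 fell (median 0.45, against 0.10 for the same genes in the libraries labelled p53-/-). Of 17 that passed (9 only through the treated library) in the cytochrome P450 list, 10 rose and 1 fell. Before the filter, 10.2% of the 98 genes of that list rose, against 6.61% of all named genes. Cyp4f39, a hydroxylase of fatty acids, rose from 1.16 to 24 FPKM (3.54), with 1.15 and 1.52 FPKM in the libraries labelled p53-/-. Cyp4f17 rose from 1.99 to 16.6 FPKM, Cyp4f16 rose from 4.07 to 13.9 FPKM, and Cyp27a1, a sterol hydroxylase, rose from 0.708 to 7.61 FPKM.

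Fatty acid enzymes lengthen, desaturate or oxidise their substrates. Scd1, a desaturase that makes oleate, fell from 29.7 to 9.58 FPKM (-1.54), and Scd2, its relative, fell from 147 to 61.5 FPKM (-1.24). Elovl2, an elongase of polyunsaturated fatty acids, rose from 3.7 to 26 FPKM (2.52), with 1.95 and 2.67 FPKM in the libraries labelled p53-/-. Acox3, a peroxisomal oxidase, rose from 2.25 to 10.8 FPKM; of 37 that passed in the fatty acid list, 4 rose and 2 fell. Of 26 that passed in the cholesterol list, 2 rose and 1 fell (median -0.34): Fdps fell from 27.7 to 11.5 FPKM, and Scap, the escort of the sterol-regulated factor SREBP, rose from 16.7 to 58.8 FPKM (1.76). Of 14 that passed (4 only through the treated library) in the apolipoprotein list, 4 rose and 1 fell. By its name rule the list also takes in editing enzymes, which are part of both counts. Of these, Apobec1 rose from 5.91 to 13.3 FPKM (1.05), and Apobec3 fell from 65.7 to 25.2 FPKM. Of 37 that passed (3 only through the treated library) in the aldehyde dehydrogenase and retinoid list, 4 rose and 1 fell: Aldh1l1, a folate enzyme, rose from 3.71 to 25.7 FPKM (2.50).

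In the glycolysis and hypoxia list 3 rose and 5 fell of 43 that passed (median -0.35, against -0.14 in the libraries labelled p53-/-). Hk2, a hexokinase, fell from 127 to 43.5 FPKM (-1.53), with 130 and 95.6 FPKM in the libraries labelled p53-/-. Ndrg1, a hypoxia gene that is also in the classic target list, fell from 21.4 to 5.53 FPKM (-1.78), with 26.9 and 18.5 FPKM in the libraries labelled p53-/-. Cbs, which begins transsulfuration, rose from 17.6 to 76.1 FPKM (2.05), Smox, spermine oxidase, rose from 5.12 to 25.7 FPKM, and Asns, asparagine synthetase and a target of Atf4, fell from 233 to 115 FPKM; of 32 that passed in the amino acid list, 2 rose and 2 fell. Of 33 that passed in the nucleotide synthesis list, 3 rose and 1 fell. Adssl1, a purine enzyme of muscle, rose from 2.03 to 6.75 FPKM (1.36), Cad, the first enzyme of pyrimidine synthesis, rose from 84.7 to 207 FPKM (1.28), Prps2, which makes the activated ribose, rose from 17.9 to 40.1 FPKM, and Ppat, the first enzyme of purine synthesis, fell from 45.4 to 20.7 FPKM (-1.10). In the integrated stress list 2 rose and 5 fell of 34 that passed (1 only through the treated library) (median -0.15): beside Atf4, Chac1 fell from 12.8 to 4.57 FPKM, Nupr1 fell from 10.4 to 3.86 FPKM, and Xbp1 fell from 33.2 to 14.6 FPKM. Cebpb, a C/EBP factor of the same list, rose from 1.06 to 9.12 FPKM (2.30). Of 60 that passed (7 only through the treated library) in the antioxidant list, 7 rose and 1 fell: Gpx3, a secreted peroxidase, rose from 18.6 to 125 FPKM (2.69), with 14.3 and 13.5 FPKM in the libraries labelled p53-/-. Of 91 that passed in the respiratory chain list, 1 rose and 1 fell (median -0.04): Cox6b2, a testis-type subunit, rose from 71.5 to 179 FPKM.

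Adaptors of ubiquitin ligases choose which proteins are marked for the proteasome. Klhl26, a KLHL-family adaptor, rose from 10.4 to 135 FPKM (3.57), with 7.68 and 7.47 FPKM in the libraries labelled p53-/-. Fbxw9, an F-box protein, rose from 23.4 to 94.2 FPKM (1.96); of 98 that passed (5 only through the treated library) in the adaptor list, 18 rose and 3 fell. Of 37 that passed (6 only through the treated library) in the TRIM ligase list, 8 rose and 1 fell: Trim11 rose from 5.59 to 29.1 FPKM, and Trim7 rose from 3.91 to 22 FPKM. In the proteasome list 1 rose and 0 fell of 49 that passed (median -0.31), the gene that rose being Psmb9. Of 66 that passed (2 only through the treated library) in the lysosome and autophagy list, 5 rose and 2 fell: Gaa, an acid glucosidase, rose from 18.5 to 80 FPKM (2.06), and Ctsd, an acid protease, rose from 115 to 280 FPKM. Tfeb, the factor that drives lysosomal genes, fell from 20.8 to 7.35 FPKM (-1.39). Of 85 that passed (5 only through the treated library) in the chaperone list, 10 rose and 2 fell: Cryab, a small heat shock protein, rose from 4.19 to 26.1 FPKM (2.39), and Hspa1a rose from 3.13 to 13.9 FPKM, whose near-identical neighbour makes the value uncertain.

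Passage through G1 depends on cyclin-dependent kinases that inactivate the pocket proteins. Rb1, the retinoblastoma protein, which holds E2F factors in check, rose from 4 to 21.3 FPKM (2.16), with 0.677 and 1.21 FPKM in the libraries labelled p53-/-. Rbl2, another pocket protein, rose from 1.71 to 12.1 FPKM (2.28), and Cdkn2b, the inhibitor p15, rose from 0.911 to 12.5 FPKM (2.82). Of 72 that passed (3 only through the treated library) in the list of cyclins, their kinases and inhibitors, 5 rose and 6 fell (median -0.12). Ccng1, a cyclin in the classic target list, rose from 58.1 to 214 FPKM (1.87), as did the inhibitor Cdkn1a of that list. Cdk6 fell from 7.05 to 1.56 FPKM (-1.65), and, outside the naming rule, Ccne1, a G1 cyclin, fell from 145 to 49.3 FPKM and Ccnd1, another, fell from 29.2 to 11.5 FPKM; the other members that fell were Ccnd2, Ccnd3 and Cdk12. Of 49 that passed in the replication list, 0 rose and 1 fell (median -0.13): Dbf4, which activates origin firing, fell from 54.6 to 23.5 FPKM. Of 50 that passed in the recombination and Fanconi list, 1 rose and 0 fell (median 0.05). Of 50 that passed in the excision, mismatch and translesion list, 5 rose and 1 fell. Of the genes that rose, 3 are classic targets: Ercc5, a nuclease of nucleotide excision repair, rose from 6.17 to 38 FPKM (2.44), Polk, a bypass polymerase, rose from 3.12 to 12.4 FPKM, and Mgmt, which repairs alkylated guanine, rose from 23.1 to 49.6 FPKM. Of 30 that passed in the topoisomerase, condensin and cohesin list, 2 rose and 2 fell: Pds5a, a cohesin regulator, fell from 38.9 to 17.8 FPKM, and Wapl, which releases cohesin, fell from 49.3 to 23.7 FPKM.

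Mitosis genes had medians below 0 in both genotypes. Of 67 genes of this list in the tables, 67 passed the level filter and 3 rose and 12 fell (median -0.60, against -0.36 for the same genes in the libraries labelled p53-/-). Plk1, a kinase of mitotic entry, fell from 99 to 29.2 FPKM (-1.73), with 106 and 35.4 FPKM in the libraries labelled p53-/-, a difference of -1.56 there. Cks2, a subunit of cyclin-dependent kinases, fell from 52.6 to 18.4 FPKM (-1.47), with 29.8 and 17.8 FPKM in the libraries labelled p53-/-. Kif23, a kinesin of cytokinesis, fell from 62.2 to 24.6 FPKM (-1.30), with 37 and 25.7 FPKM in the libraries labelled p53-/-. Ube2s, a ubiquitin enzyme of mitotic exit, fell from 108 to 43.9 FPKM (-1.27), with 104 and 59.1 FPKM in the libraries labelled p53-/-. The 3 genes of the list that rose are all in the classic target list: Psrc1, a microtubule protein, rose from 61.1 to 159 FPKM, Ckap2, another, rose from 35.9 to 100 FPKM, and Gtse1 rose from 76.9 to 170 FPKM. Of 54 that passed (5 only through the treated library) in the tubulin and kinesin list, 9 rose and 4 fell: Kif17 rose from 0.371 to 3.62 FPKM, Kif1c rose from 7.75 to 25.5 FPKM, and Tuba4a fell from 103 to 41 FPKM. Of 44 that passed (2 only through the treated library) in the actin regulator list, 6 rose and 3 fell: Avil, an actin-binding villin relative, rose from 0.256 to 4.94 FPKM, and Cdc42ep2, an effector of Cdc42, fell from 7.18 to 1.65 FPKM.

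Plk1 and Kif23 are shown because they fell most among the mitosis genes whose promoter holds both the CHR element TTTGAA, a site that cell cycle repressor and activator complexes use, and a CCAAT box (chr7:122159185-122159484, plus strand, and chr9:61946750-61947049, minus strand, RefSeq on GRCm38.p6, 5′ to 3′, both motifs in capitals on whichever strand).
In the Plk1 promoter the CCAAT box begins 14 bases before and the CHR element 30 bases after the start site, and in that of Kif23 they lie 7 bases before and 2 bases after it.
Plk1: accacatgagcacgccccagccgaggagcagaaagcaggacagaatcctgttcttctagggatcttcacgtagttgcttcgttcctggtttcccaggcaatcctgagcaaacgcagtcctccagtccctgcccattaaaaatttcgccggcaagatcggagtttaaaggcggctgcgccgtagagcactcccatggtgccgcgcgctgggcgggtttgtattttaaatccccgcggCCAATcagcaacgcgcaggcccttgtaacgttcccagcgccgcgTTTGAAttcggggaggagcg
Kif23: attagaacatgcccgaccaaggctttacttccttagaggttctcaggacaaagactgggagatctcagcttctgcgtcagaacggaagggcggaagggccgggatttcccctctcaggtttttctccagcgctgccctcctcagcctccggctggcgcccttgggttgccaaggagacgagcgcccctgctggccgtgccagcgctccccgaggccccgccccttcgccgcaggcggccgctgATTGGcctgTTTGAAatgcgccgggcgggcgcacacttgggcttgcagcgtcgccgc

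Of 57 mitosis genes with a promoter in the table, 36 (63.2%) held a CHR element on either strand and 42 (73.7%) a CCAAT box, against 14% and 43.6% of compared genes and 20.2% and 41.1% of all genes in the table. Within the mitosis list the 36 genes with a CHR element had a median of -0.66 (8 fell) and the 21 without one a median of -0.54 (3 fell), so both medians were below 0. Outside the list 1368 compared genes with the element had a median of 0.04 and 8603 without it a median of 0.07.

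**Figure D3:**
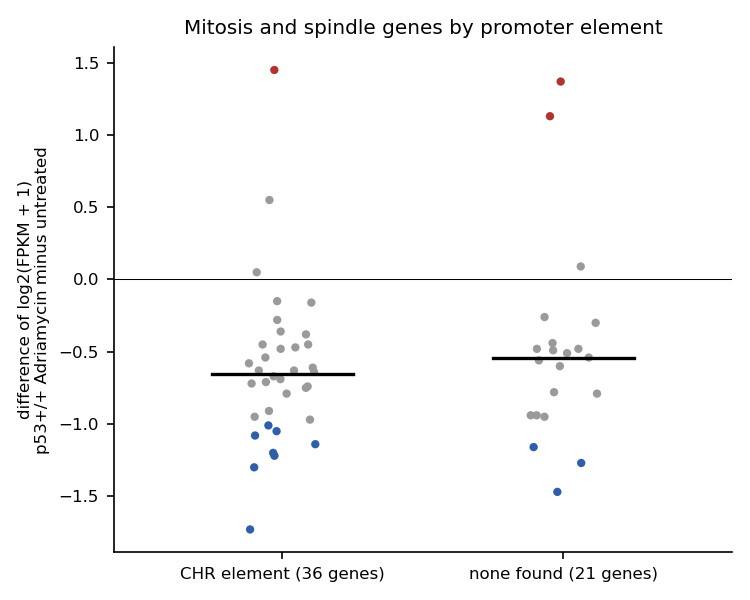
Each point is 1 mitosis gene with a promoter in the RefSeq table, placed by whether a CHR element was found; the y axis is the p53+/+ difference on the log2(FPKM + 1) scale and the bars are medians (-0.66 and -0.54). Both columns lie mostly below 0 and overlap.

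Of 119 that passed (2 only through the treated library) in the helicase and splicing list, 2 rose and 7 fell (median -0.33), Ddx58 among the latter. Srsf3, an SR splicing factor, fell from 79.4 to 21.5 FPKM (-1.84), with 67.1 and 69.4 FPKM in the libraries labelled p53-/-. Srsf7, its close relative, fell from 80.4 to 27.1 FPKM (-1.54), with 95.8 and 85.9 FPKM in the libraries labelled p53-/-. Of 36 that passed in the Polycomb and Trithorax list, 3 rose and 2 fell (median -0.39). Ezh2, the methyltransferase of complex 2, fell from 79.8 to 37.2 FPKM (-1.08), and Jarid2, its partner, fell from 149 to 65.4 FPKM (-1.17), whereas Phf1, an accessory factor of that complex, rose from 2.25 to 7.2 FPKM (1.34). Phc2, of complex 1, rose from 13.4 to 34.2 FPKM (1.29), and Pcgf3, of complex 1, rose from 17.6 to 45.9 FPKM (1.33). Of 82 that passed (1 only through the treated library) in the list of chromatin enzymes, 2 rose and 8 fell: Tet2, which oxidises methylcytosine, fell from 30.8 to 10.4 FPKM (-1.48), Kdm3a, a demethylase, fell from 19.4 to 5.75 FPKM, and Kat2b, an acetyltransferase, fell from 15.1 to 5.75 FPKM. Of 63 that passed in the ribosome biogenesis list, 0 rose and 4 fell: Nop56, a nucleolar protein, fell from 182 to 79.1 FPKM (-1.19), Nop58, its partner, fell from 120 to 54.9 FPKM, and Ubtf, a factor of RNA polymerase I, fell from 67 to 31.8 FPKM. Ribosomal protein genes had a median of -0.35 in p53+/+ cells, where 5 of 88 fell, and of -0.47 in the cells labelled p53-/-. Their processed copies make single members uncertain, and 16 of 88 lay within their own deposited bounds. Mitochondrial ribosomal protein genes had a median of -0.12 (1 rose and 0 fell of 78). Of 101 that passed (2 only through the treated library) in the translation factor list, 1 rose and 5 fell: Eef1a2, the elongation factor form of muscle and neurons, rose from 0.825 to 20.2 FPKM (3.54), and Tars, a tRNA synthetase, fell from 78.4 to 36.7 FPKM. Of 59 that passed in the histone list, 2 rose and 4 fell, but replication histones are near-identical and mostly lack poly(A), so their values are uncertain.

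**Figure D4:**
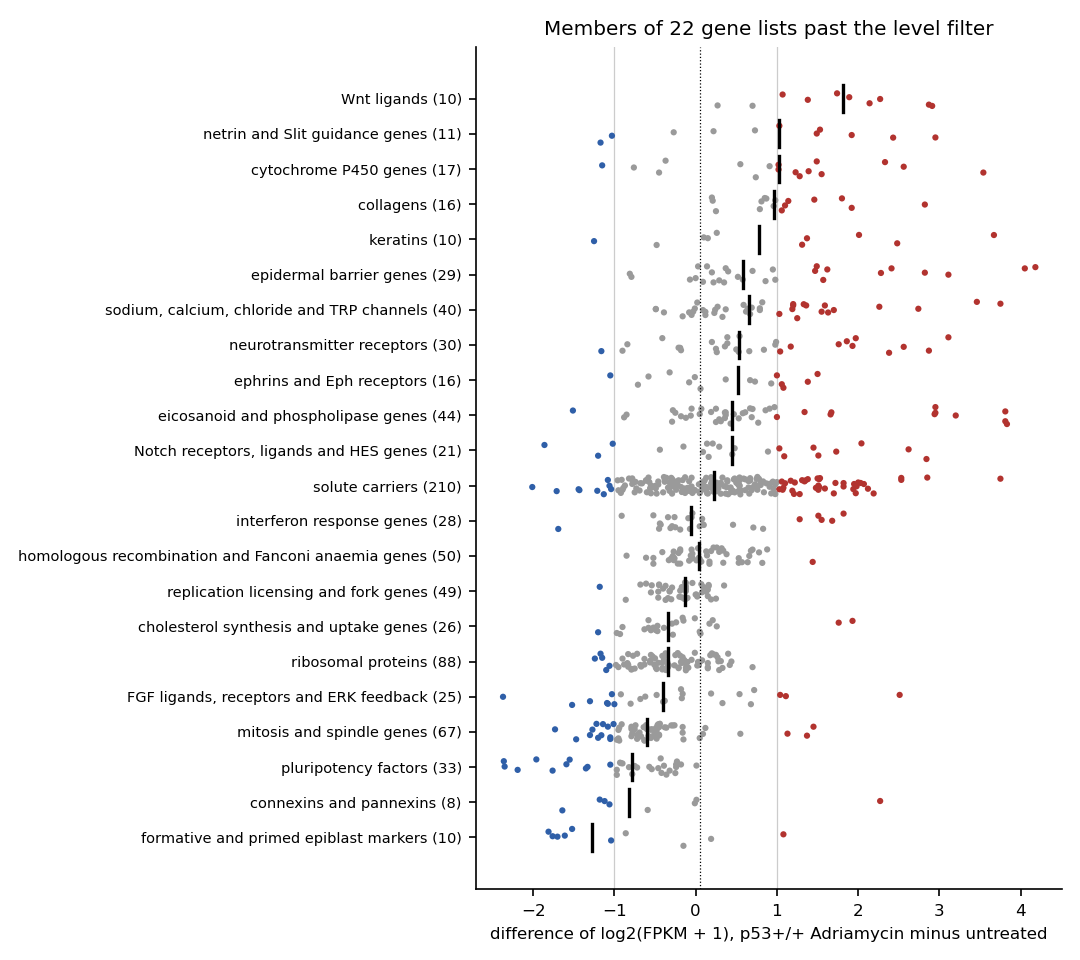
Each point is a gene that passed the filter, in 22 lists (number that passed in parentheses); the x axis is the p53+/+ difference on the log2(FPKM + 1) scale, black bars are list medians, the dotted line is the median of all genes compared (0.05), and red and blue mark genes past 1. Of these lists the Wnt ligands have the highest median, 1.81, with 7 of 10 having passed only through the treated library, and the formative epiblast markers the lowest, -1.28.

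Among transcription factors, nuclear receptors respond to hormones and lipids. Vdr, the vitamin D receptor, rose from 0.498 to 7.34 FPKM (2.48), with 0.0814 and 0.284 FPKM in the libraries labelled p53-/-. Ppard, a sensor of fatty acids, rose from 11.8 to 60.4 FPKM (2.26), with 8.62 and 8.76 FPKM in the libraries labelled p53-/-. Nr3c1, the glucocorticoid receptor, rose from 2.37 to 9.64 FPKM, and Nr5a2, an activator of Pou5f1, fell from 16.7 to 4.89 FPKM (-1.59); of 20 that passed (1 only through the treated library), 5 rose and 2 fell. Of 22 that passed (3 only through the treated library) in the forkhead list, 4 rose and 2 fell: Foxj1, the factor of motile cilia, rose from 0.641 to 8.83 FPKM (2.58), Foxo3 rose from 17.7 to 42.2 FPKM, and Foxo4 fell from 25.2 to 10.1 FPKM. These FOXO genes thus went in opposite directions. Of 20 that passed (1 only through the treated library) in the KLF and SP list, 2 rose and 2 fell (Klf8 fell from 8.45 to 2.66 FPKM), and of 13 that passed (4 only through the treated library) in the SOX list, 0 rose and 0 fell. Of 22 that passed (4 only through the treated library) in the TEA, GATA, T-box and ETS list, 3 rose and 3 fell: Tbx4, a limb factor, rose from 0.258 to 7.77 FPKM (2.80), and Spib, a lymphoid ETS factor, rose from 0.295 to 6.2 FPKM. Of 20 that passed (4 only through the treated library) in the homeobox list outside the Hox clusters, 1 rose and 2 fell. Hox cluster genes numbered 39 in the files, with 2 that passed (1 only through the treated library): Hoxc13, a factor of hair and nail, rose from 0.601 to 5.12 FPKM (1.93). Of 326 that passed (22 only through the treated library) among Zfp genes, 13 rose and 6 fell, and the share that rose was 3.99% against 11.8% of all genes compared. Zfp365, which is also in the classic target list, rose from 5.76 to 54.9 FPKM (3.05), and Zfp688 rose from 8.55 to 36.7 FPKM.

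Pluripotency factors form a network that holds the ES cell state. Of 33 genes of this list in the tables, 33 passed the level filter and 0 rose and 10 fell (median -0.78, against -0.15 for the same genes in the libraries labelled p53-/-). Prdm14, which keeps DNA methylation low, fell from 18.9 to 3.38 FPKM (-2.19), with 12 and 12 FPKM in the libraries labelled p53-/-. Nr0b1 fell from 58.1 to 10.6 FPKM (-2.35), with 32.5 and 23.2 FPKM in the libraries labelled p53-/-. Gbx2 fell from 21.8 to 4.84 FPKM, and Zfp42, the naive marker Rex1, fell from 289 to 84.7 FPKM (-1.76). Markers of the formative and primed epiblast, the stages that follow the naive state, had a median below 0 as well. Of 12 genes of this list in the tables, 10 passed the level filter and 1 rose and 6 fell (median -1.28, against -0.13 for the same genes in the libraries labelled p53-/-). Otx2, the factor of that transition, fell from 15.1 to 4.28 FPKM (-1.61), with 30.6 and 30.5 FPKM in the libraries labelled p53-/-. Zic2 fell from 6.01 to 0.993 FPKM (-1.81), with 23.3 and 18.2 FPKM in the libraries labelled p53-/-. Foxd3 fell from 10.1 to 2.28 FPKM, whereas Cldn6, a tight junction gene, rose from 25.3 to 54.4 FPKM.

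Markers of other lineages were mixed. Of 4 that passed in the neural list, 1 rose and 0 fell: Neurod1, a neurogenic factor, rose from 1.8 to 12.5 FPKM (2.27), while Tubb3 stood at 62.2 FPKM untreated and 33.2 FPKM treated. Of 5 that passed (3 only through the treated library) in the mesendoderm list, 2 rose and 1 fell: Mesp1 rose from 0.206 to 3.39 FPKM (1.86), and Eomes fell from 3.16 to 0.654 FPKM (-1.33); the list's 14 genes summed to 8.74 and 16.8 FPKM. Of 15 that passed (1 only through the treated library) in the primitive endoderm list (summed 182 and 213 FPKM), 2 rose and 0 fell, and of 8 that passed (1 only through the treated library) in the trophoblast list (summed 41.3 and 53.4 FPKM), 1 rose and 1 fell. Of 10 that passed (2 only through the treated library) in the haematopoietic and endothelial list, 3 rose and 1 fell. Eng, endoglin, a co-receptor of TGF-beta and BMP ligands, rose from 21.3 to 113 FPKM (2.35), with 2.91 and 3.1 FPKM in the libraries labelled p53-/-. Tek, the angiopoietin receptor, rose from 1.78 to 9.35 FPKM, and Kit fell from 30.6 to 13.7 FPKM. Genes of the rare two-cell-like state summed to 706 and 1080 FPKM in p53+/+ cells and to 109 FPKM in each library labelled p53-/-; of 11 that passed, 1 rose and 0 fell. Zscan4c, their best known member, whose near-identical copies share reads, stood at 115 FPKM untreated and 179 FPKM treated (0.64), with 14.2 and 16.3 FPKM in the libraries labelled p53-/-. Of 24 that passed (3 only through the treated library) in the germline list, 3 rose and 0 fell: Hormad1, a meiotic gene, rose from 5.03 to 18.5 FPKM. Of 27 that passed (4 only through the treated library) in the imprinted list, 2 rose and 4 fell: Peg10 fell from 107 to 32.7 FPKM (-1.68), Mest fell from 24.9 to 8.34 FPKM, Phlda2 fell from 56.9 to 22.4 FPKM, and Slc22a18, a neighbour of Phlda2, rose from 2.81 to 9.77 FPKM. Of 26 that passed (1 only through the treated library) in the long noncoding RNA list, 2 rose and 1 fell: Neat1, the scaffold of paraspeckles, rose from 27.7 to 70.6 FPKM (1.32), and Snhg4, a host of small nucleolar RNAs, fell from 14.5 to 4.93 FPKM (-1.39), with 12.3 and 6.84 FPKM in the libraries labelled p53-/-.

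A full p53 response element (2 half-sites of 10 bases with every letter of the consensus and a spacer of at most 13 bases) was rare so close to the start.
It was found in 3 of 1178 promoters of genes that rose (0.255%), in 0 of 275 of genes that fell, in 3 of 8575 of the genes between (0.035%) and in 20 of 27025 genes of the table (0.074%). Among classic p53 targets 1 of 77 (1.3%) held it, so this search misses most known targets.
The 3 that rose were Cdkn1a, a classic target, and Itm2a and Sptbn4, which are outside that list and named for this match.
Itm2a, a transmembrane protein gene of cartilage and muscle, rose from 4.43 to 22.5 FPKM (2.11), with 6.72 and 7.84 FPKM in the libraries labelled p53-/-.
Sptbn4, a beta spectrin of the axon initial segment, rose from 6.49 to 26.2 FPKM (1.86), with 4.17 and 3.7 FPKM in the libraries labelled p53-/-.
Dnajc7, Ifitm2 and Pard3, the genes between that held an element, had differences of -0.68, -0.09 and 0.26.
The promoters of Itm2a and Sptbn4 follow with the half-sites in capitals (chrX:107403311-107403610, minus strand, and chr7:27396149-27396448, minus strand, RefSeq on GRCm38.p6, 5′ to 3′); the element begins 202 bases before the start of Itm2a, with a spacer, and 55 bases before that of Sptbn4, where the half-sites abut.
Itm2a: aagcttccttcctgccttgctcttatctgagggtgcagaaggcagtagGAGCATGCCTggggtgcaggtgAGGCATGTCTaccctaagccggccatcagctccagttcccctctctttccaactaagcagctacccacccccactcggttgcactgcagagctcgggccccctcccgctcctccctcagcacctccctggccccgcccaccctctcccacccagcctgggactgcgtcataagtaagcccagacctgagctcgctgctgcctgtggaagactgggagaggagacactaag
Sptbn4: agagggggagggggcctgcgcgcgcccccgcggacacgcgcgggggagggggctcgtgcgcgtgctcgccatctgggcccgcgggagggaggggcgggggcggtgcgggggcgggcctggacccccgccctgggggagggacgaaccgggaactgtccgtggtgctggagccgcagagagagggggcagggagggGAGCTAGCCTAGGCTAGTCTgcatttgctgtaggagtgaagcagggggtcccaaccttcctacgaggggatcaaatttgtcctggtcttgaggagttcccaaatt

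Genes that rose and genes that fell differed in level. Sorted by mean FPKM in the 2 libraries labelled p53-/-, which the comparison did not use, 15.6% of all named genes at 1 to 3 FPKM rose and 0.939% fell; at 10 to 30 FPKM these were 5.69% and 3.27%, and at 100 FPKM or more 1.07% and 5.67%. The median difference was 0.21 at 1 to 3 FPKM and -0.24 at 100 FPKM or more in p53+/+ cells, and 0.13 and -0.07 in the cells labelled p53-/-. FPKM are shares of a library, so a gain of some genes lowers the others, and the part of this in the falls was not tested. On this scale a fall of 1 needs at least 1 FPKM untreated, which limits the falls of low genes. By genomic span, among genes at a mean of 5 FPKM or more, 11.7% of those under 2000 bases rose, 7.45% to 8.32% in the 6 bins from 2000 to 200000 bases and 5.93% (8 of 135) of the longer ones.

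**Figure D5:**
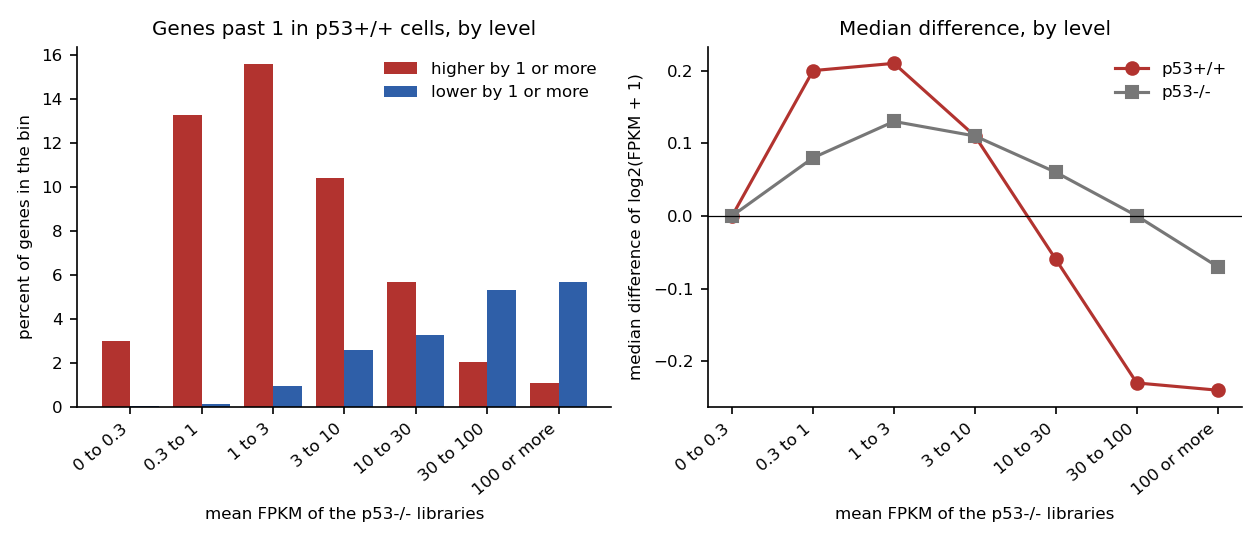
All named genes in bins of their mean FPKM in the 2 libraries labelled p53-/-. Left, the percent of each bin that was higher (red) or lower (blue) by 1 or more in treated p53+/+ cells, with 15.6% higher at 1 to 3 FPKM and 5.67% lower at 100 FPKM or more; right, the median difference in each genotype, which the added 1 FPKM holds near 0 in the lowest bin.

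Of the 1481 genes that rose, 32.3% had another gene that rose as a direct neighbour among the genes compared, against 21.9% of all 12532; without overlapping neighbours these were 30.9% and 21%. For genes that fell, 10.8% had a neighbour that fell, against 5.69% of all. There were 12 runs of 4 adjacent genes that rose and no longer run; those named here were chosen after their values were seen. One on chromosome 17 (32589668 to 32813425 in mm9) held Cyp4f39, Cyp4f17, Cyp4f16 and Cyp4f40. One on chromosome 11 (32186964 to 32200873) held the alpha-globin genes and their relatives Hbq1b and Hbq1a: Hba-a1 rose from 0.783 to 2.77 FPKM, with 2.16 and 0.669 FPKM in the libraries labelled p53-/-, and Hba-a2 rose from 0.0147 to 2.46 FPKM, with 0.0221 and 2.69 FPKM in the libraries labelled p53-/-, with near-identical sequences that make both uncertain. Another on chromosome 1 (65095131 to 65169767) held the gamma-crystallins Cryge, Crygd and Cryga, lens proteins at 1.36 to 2.72 FPKM after treatment. In the libraries labelled p53-/-, Cryge was at 3.36 and 1.82 FPKM, Crygd at 1.32 and 2.25 FPKM, and Cryga at 0.112 and 0.315 FPKM. A run on chromosome 4 (128404815 to 128639661) held Phc2, Zfp362, Trim62 and Azin2, where Azin2, an antizyme inhibitor, rose from 7.18 to 61.3 FPKM (2.93), with 4.05 and 3 FPKM in the libraries labelled p53-/-. Strand was not stated, so reads of overlapping genes in such runs cannot be told apart.

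The X chromosome held the lowest share of genes that rose, 4.9% of 408, and the lowest median, -0.18. The autosomes lay between 6.52% (chromosome 13) and 14.5% (chromosome 2), with medians from -0.06 to 0.16. In the cells labelled p53-/- the median of X-linked genes was 0.10, against 0.04 to 0.09 for the autosomes, and their median level there, 6.58 FPKM, was the lowest of the chromosomes. By type, 26 of 225 long noncoding RNA genes in the RefSeq annotation rose and 6 fell, shares close to those of all genes compared.

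Among the genes named above, Them5, Sytl1, Slc4a11, Lin28a, Slc7a3, Nr0b1, Bcl3, Plk1, Etv5, Nodal, Lefty1, Gdf1, Atf4, Ier3, Psmb9, B2m, Serpine2, St14, Cldn4, Snai3, Vim, Epha2, Slc2a3, Lta4h, Hk2, Asns, Cad, Nupr1, Gpx3, Fbxw9, Trim11, Trim7, Ctsd, Cryab, Ccng1, Ccne1, Mgmt, Cks2, Kif23, Ube2s, Ckap2, Nop56, Nop58, Tars, Ppard, Zfp688, Zfp42, Cldn6, Tubb3, Zscan4c, Peg10, Phlda2, Neat1, Snhg4, Dnajc7, Ifitm2 and Azin2 had a transcript whose value lay outside its own deposited bounds, or was not at status OK, in at least 1 p53+/+ library.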

How the data were processed

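RNA of 4 ES cell samples was sequenced, 1 per group, grouped by their titles; the p53+/+ pair was compared. The authors deposited 1 transcript table per library with FPKM, its lower and upper bound, read coverage (a signal per base), length, mm9 position and status, laid out as Cufflinks output per the file headers. The submitters' processing notes list Cufflinks, TopHat, TopHat2 2.0.5 and CASAVA 1.8.1; the annotation was not given in the sources used here. Of 30769 rows, 30223 were named through a RefSeq table (GRCm38.p6) and 184 through GENCODE; 362 stayed unnamed, and 744 short RNA genes were left out. FPKM were summed per gene, and differences of log2(FPKM + 1) were counted at 1; the filter was 1 FPKM in either p53+/+ library. Since FPKM hold no counts, nothing was tested; depth is coverage times length. The deposited bounds do not cover biological spread, and 10273 of 12532 genes had every transcript at status OK and within its own bounds in both p53+/+ libraries. The members, the 91 gene lists and the alternatives were chosen with earlier results of these data known. Named genes were the 20 largest each way outside the classic targets with 5 FPKM in a p53+/+ library, status OK and a symbol that is no unnamed model or pseudogene, and up to 6 members per list with the largest differences at 2 FPKM or more; Pou5f1 was added as a check, and other genes are said to be outside the rule or chosen after their values were seen. Promoters are RefSeq windows of 250 bases before to 50 after a start, searched on both strands and matched by symbol for 10028 of the 12532 genes. Python 3.11.15, pandas 2.3.3, numpy 2.4.6 and matplotlib 3.10.9 were used, and the steps were tested on simulated data. A few genes are not reported here. Alternatives changed the pseudocount, filter, scaling, threshold, transcript summing and gene set.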

Additional observations from a re-analysis of the deposited data

Results flagged for a closer look

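Among genes past 1 in both genotypes, 2 moved in opposite directions, and the difference between genotypes was not tested. Rps15a-ps4 was lower in treated p53+/+ cells (from 34.8 to 9.18 FPKM, -1.81) and higher in treated cells labelled p53-/- (from 18.8 to 183 FPKM, 3.22). Gm6083 was lower in treated p53+/+ cells (from 67.3 to 31.2 FPKM, -1.08) and higher in treated cells labelled p53-/- (from 26.4 to 148 FPKM, 2.45). Both are annotated as transcribed pseudogenes, and neither lay within its own deposited bounds.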

How the results depend on the processing

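No paired analysis was possible because each group has 1 library, and no library could be left out. The 1481 genes that rose and 362 that fell became 627 and 153 with a pseudocount of 5 FPKM, 2834 and 1490 at a threshold of 0.58, and 342 and 12 at 2. With a pseudocount of 0.1 FPKM, 569 genes fell, and with quantile normalization 581 fell. Both counts stayed within 1.5 times with a filter of 5 FPKM, the top transcript, and upper quartile or median ratio scaling. They did so too for genes within their bounds and for the list without classic targets. Dropping the filter cannot change the counts, since a gene past 1 always passes it. Over 9 settings none of 390 named genes past 1 changed direction, but a change of pseudocount, filter or gene set cannot change a direction. Only the scalings and the use of the top transcript could have done so. Of these genes, 161 no longer reached 1 with a pseudocount of 5 FPKM, and 40 under quantile normalization. Under quantile normalization 22 list medians, which were between -0.04 and 0.33, had the other sign. The median of connexins and pannexins, -0.82, became 0.01 with no filter, which adds members near 0. With 1 library a group, no value has a replicate error.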
